A study of Mus musculus with 2 samples.

Results

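The 10 histone variant genes H1f0, H1fx, H2afz, H2afv, H2afx, H2afy, H2afy2, H3f3a, H3f3b and Cenpa, which lie outside the histone clusters, were described in the hindbrain of mouse embryos at 11.5 days. They were chosen by gene symbol, and all 10 were found among the 43346 Ensembl genes of the tables, together with 39 annotated transcripts. The series held 1 group, healthy B6NCrl hindbrain from embryos of both sexes, as 2 biological replicates. Pool 1 combined 109 embryos and pool 2 combined 88. The input per library was 10 ng of RNA above 200 nt, to which synthetic ERCC control RNAs had been added. No treatment, genotype or other tissue was compared, so the values describe this tissue and how far its pools differed. With 1 library per pool, no difference between them carries a p-value.

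Histone variants replace the standard histones at particular places in chromatin. The standard genes sit in clusters, are expressed mainly in S phase, and give mRNAs that end in a stem-loop without a poly(A) tail; variant genes lie alone, and most give spliced, polyadenylated mRNAs throughout the cell cycle. H3.3, the product of both H3f3a and H3f3b, is deposited at active genes by HIRA and at repeats by DAXX and ATRX. H2A.Z, from H2afz and H2afv, flanks the start sites of genes, H2AX is phosphorylated beside DNA breaks, and macroH2A, from H2afy and H2afy2, carries a large macrodomain and marks repressed chromatin. CENP-A replaces H3 at centromeres. H1.0, from H1f0, is a linker histone known to accumulate as cells leave the cell cycle, and H1fx codes for the divergent linker histone H1X.

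The sequences below carry the points on which the results turn: how the H3.3 genes are told apart, which macroH2A exon is used, and how the H2afx transcript resembles those of the clusters. The H3.3 genes encode the same 136 residues with 0 differences, but 95 of their 411 coding bases differ, by the full-length forms H3f3b-201 and H3f3a-205. The first 120 coding bases are given from GENCODE vM21 (GRCm38), with the 24 bases that differ between the genes in capitals.
H3f3b: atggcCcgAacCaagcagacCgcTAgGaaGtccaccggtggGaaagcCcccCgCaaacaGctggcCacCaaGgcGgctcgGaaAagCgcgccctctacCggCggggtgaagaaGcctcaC
H3f3a: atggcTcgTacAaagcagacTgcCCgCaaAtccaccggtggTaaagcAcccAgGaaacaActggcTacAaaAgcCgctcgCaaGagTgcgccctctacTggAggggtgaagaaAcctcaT
The differing bases are spread along the whole stretch.

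H2afy makes its isoforms through a pair of mutually exclusive exons, of which macroH2A1.1 allows binding of ADP-ribose and macroH2A1.2 does not. The macroH2A1.2 exon lies at chr13:56089758-56089857 and the macroH2A1.1 exon at chr13:56088252-56088342, both on the minus strand of GRCm38. H2afy2 has a single exon at the same place in its gene, exon 6 of 9, at chr10:61747672-61747771 on the minus strand. Capitals in the H2afy exons mark bases that differ from, or are missing in, the other H2afy exon, and capitals in the H2afy2 exon mark bases that differ from the macroH2A1.2 exon.
macroH2A1.2: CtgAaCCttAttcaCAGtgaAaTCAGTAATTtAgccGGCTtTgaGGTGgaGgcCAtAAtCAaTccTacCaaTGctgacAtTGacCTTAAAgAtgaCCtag
macroH2A1.1: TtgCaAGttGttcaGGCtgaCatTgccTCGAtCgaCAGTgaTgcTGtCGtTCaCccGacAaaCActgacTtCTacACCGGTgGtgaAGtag
H2afy2: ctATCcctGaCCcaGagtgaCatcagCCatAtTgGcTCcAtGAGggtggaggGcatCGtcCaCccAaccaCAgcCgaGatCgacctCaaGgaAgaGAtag
The H2afy2 exon shared 65% of aligned positions with the macroH2A1.2 exon and 50.5% with the macroH2A1.1 exon, and like the macroH2A1.2 exon it has 100 bases. The macroH2A1.1 and macroH2A1.2 proteins have 369 and 372 residues and differ at 22 aligned residues, with 3 further residues in gaps.

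Of the 10 genes, only H2afx held a match to the histone stem-loop consensus in its annotated transcripts. The match stands 46 bases after the stop codon, at chr9:44335235-44335260 on the plus strand of GRCm38 with 5 bases on each side, and 822 bases of the transcript follow it. It is shown beside that of Hist1h2ap, the most abundant clustered H2A gene here, at chr13:21833029-21833044 on the minus strand, with the stem-loop in capitals.
H2afx stem-loop: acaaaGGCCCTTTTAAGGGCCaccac
Hist1h2ap stem-loop: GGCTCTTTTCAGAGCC
The same consensus matched 44 of the 66 clustered histone genes and 16 of 14779 expressed genes outside the clusters (0.108%), H2afx itself among the 16. H2afx is known to give both a short mRNA ending at this stem-loop and a longer polyadenylated one; the deposited tables list 1 transcript of 1384 nt, so these forms were not counted apart.

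All 10 genes were expressed, reaching 1 TPM or more in each of the pools. TPM is a length-adjusted share of the library, so it allows levels to be compared between genes. Summed over the 10 genes it reached 8449 TPM in pool 1 and 7378 TPM in pool 2 (7914 ± 758, SD, n = 2), or 0.845% and 0.738% of each library. The H3.3 and H2A.Z genes H3f3a, H2afz and H3f3b averaged over 1000 TPM and together made up 76.4% of the sum in pool 1 and 77.6% in pool 2. Reads behind these values ran from 897 expected counts for H1fx in pool 2 to 80743 for H3f3b in pool 1, out of 45340440 and 41261544 expected counts per library. Intervals and counts cover counting error only, and the spread between pools may include technical differences.

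**Figure D1:**
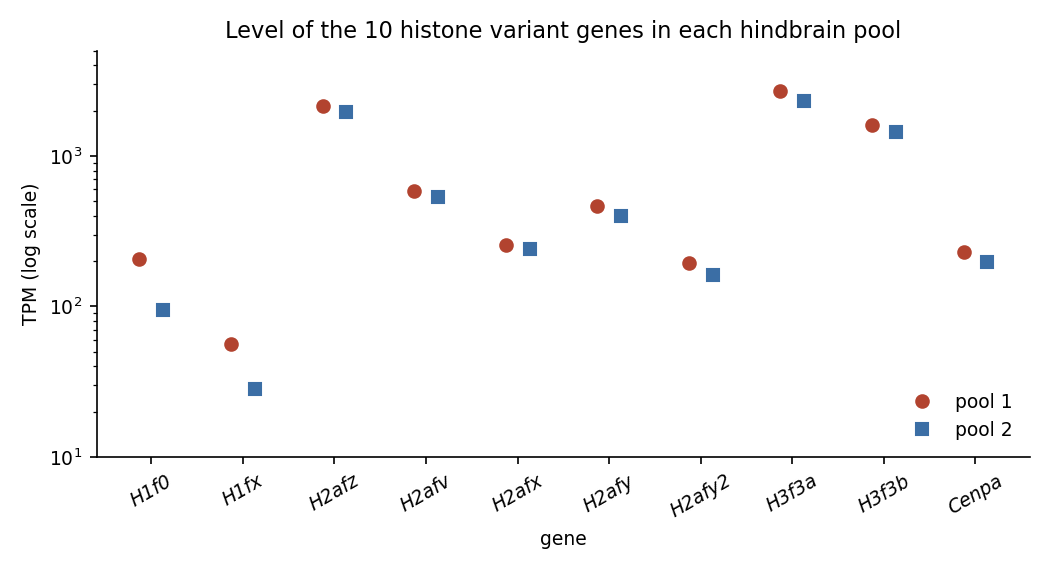
TPM of each histone variant gene (log scale) in pool 1 (circles) and pool 2 (squares), 1 point per library. H3f3a is highest at 2705 and 2327 TPM, and H1f0 and H1fx are the pairs of points that stand furthest apart.

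The linker variants came lowest and differed most between the pools. H1f0 (ENSMUSG00000096210.1; chr15:79028450-79030504, plus strand, a gene with 1 exon) had 207 TPM in pool 1 and 95.2 TPM in pool 2, from 13303 and 5885 reads. H1fx (ENSMUSG00000044927.6; chr6:87980421-87981637, minus strand, 1 exon) had 55.9 TPM in pool 1 and 28.4 TPM in pool 2. H1f0 was thus 2.17-fold and H1fx 1.97-fold higher in pool 1 before any scaling, and the next member, H2afy2, 1.21-fold. The deposited intervals, which surround a posterior mean slightly below the TPM, were 199 to 206 in pool 1 and 90.9 to 95.7 in pool 2 for H1f0. For H1fx they were 52.4 to 57.4 in pool 1 and 26.1 to 29.7 in pool 2, so neither gene's intervals overlapped. H1f0 gave 78.7% of the transcripts of these linker genes in pool 1 and 77.0% in pool 2, so the balance between them moved little while both levels moved. Their proteins are distant relatives, with 29.2% of aligned residues identical.

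Among H2A variants, H2afz (ENSMUSG00000037894.9; chr3:137864487-137866922, plus strand) was highest, at 2146 TPM in pool 1 and 1949.6 TPM in pool 2. H2afv (ENSMUSG00000041126.12; chr11:6427229-6444443, minus strand), which encodes the H2A.Z protein that differs from that of H2afz at 3 of 128 residues, had 587 TPM in pool 1 and 531 TPM in pool 2. H2afz therefore supplied 78.5% and 78.6% of H2A.Z transcripts (78.6 ± 0.044%, SD, n = 2), the steadiest of the shares computed within a family. This share counts every annotated form. By TPM most of H2afv, 64.4% in pool 1 and 65.2% in pool 2, was H2afv-201, annotated with 90 codons and so not the full 128 residues. In reads the order turned: the longer H2afv-202, with 128 codons, took 66.9% in pool 1 and 66.1% in pool 2. H2afx (ENSMUSG00000049932.3; chr9:44334694-44336077, plus strand, 1 exon) had 258 TPM in pool 1 and 241 TPM in pool 2, and its relative SD, 4.60% of the mean, was the lowest of the 10 genes.

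The macroH2A genes followed. H2afy (ENSMUSG00000015937.10; chr13:56073619-56136361, minus strand) had 466 TPM in pool 1 and 397 TPM in pool 2. H2afy2 (ENSMUSG00000020086.6; chr10:61738665-61784147, minus strand), whose protein shares 67.9% of aligned residues with macroH2A1.2, had 195 TPM in pool 1 and 162 TPM in pool 2. H2afy gave 70.5% and 71.1% of macroH2A transcripts, so the less abundant H2afy2 still made up a sizeable minority in both pools.

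Of the H3 variants, H3f3a (ENSMUSG00000060743.8; chr1:180800832-180813943, minus strand) had 2705 TPM in pool 1 and 2327 TPM in pool 2, the highest of the 10 genes. H3f3b (ENSMUSG00000016559.10; chr11:116021912-116027962, minus strand) had 1601 TPM in pool 1 and 1448 TPM in pool 2. H3f3b gave 37.2% of H3.3 transcripts in pool 1 and 38.4% in pool 2 when counted per transcript (37.8 ± 0.841%, SD, n = 2). In reads the order turned: H3f3b, whose expressed transcripts are longer (1814 nt on average in pool 1, against 1019 nt for H3f3a), took 52.4% of the reads of both genes. Cenpa (ENSMUSG00000029177.5; chr5:30666777-30674830, plus strand) had 229.7 TPM in pool 1 and 198 TPM in pool 2.

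Ordered by mean TPM the genes ran H3f3a, H2afz, H3f3b, H2afv, H2afy, H2afx, Cenpa, H2afy2, H1f0, H1fx. Of the 9 neighbouring pairs in that order, 8 stood the same way round in both pools without overlap of their values. The exception was H2afy2 and H1f0: H1f0 was the higher by 11.5 TPM in pool 1, and H2afy2 was the higher by 66.4 TPM in pool 2. H2afx and Cenpa lay only 28.0 and 43.4 TPM apart, and Cenpa and H2afy2 34.5 and 36.5 TPM apart, gaps little above the spread of Cenpa between pools (SD 22.4 TPM).

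Set against the clustered genes of the same histone class, the variants held very different shares. In the H3 class H3f3a, H3f3b and Cenpa made up 94.1% of TPM in pool 1 and 93.6% in pool 2, against 12 clustered H3 genes at 284 and 272 TPM in sum. In the H2A class the 5 variants made up 47.5% and 46.0%, since the 20 clustered H2A genes summed to 4041 and 3854 TPM, most of it from Hist1h2ap (3679.5 and 3490.2 TPM). In the linker class H1f0 and H1fx made up 79.2% in pool 1 and 63.2% in pool 2, with the 6 clustered H1 genes at 69.0 and 72.0 TPM in sum. H1f0 alone was 62.3% and 48.7% of linker transcripts. Over all classes the variants were 63.5% and 61.4% of the TPM of variant and clustered histone genes together. Clustered transcripts lack a poly(A) tail; how completely the library method captured them was not tested, so these shares hold for the deposited values.

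**Figure D2:**
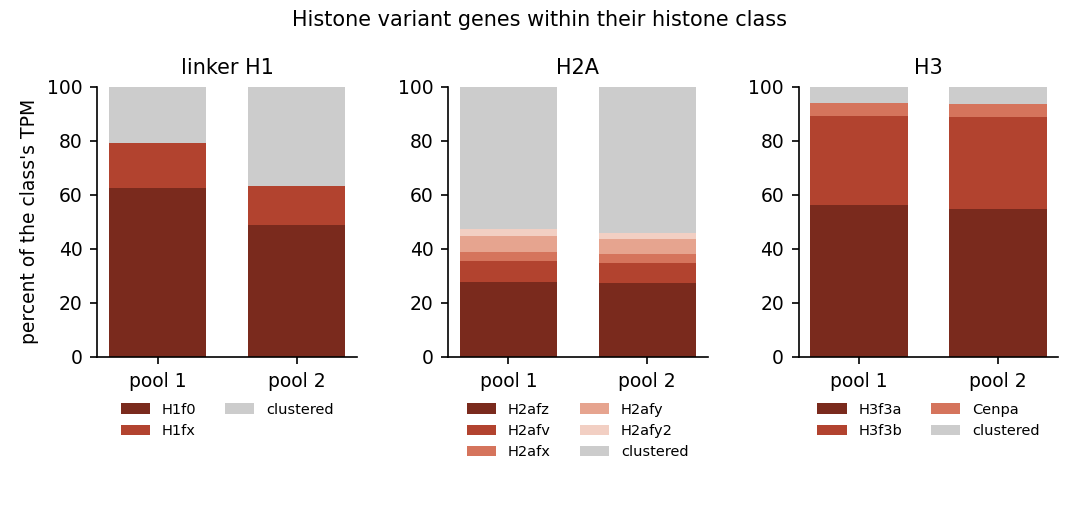
Percent of TPM within the linker H1, H2A and H3 classes taken by each variant gene (red shades) and by the clustered genes of the class (grey), in pool 1 and pool 2. The variants fill 94.1% and 93.6% of the H3 class, and their part of the linker class is 79.2% in pool 1 and 63.2% in pool 2.

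The reads of some members cannot be wholly told from those of copies elsewhere or of overlapping genes. Exact stretches of 100 bases were shared between H3f3a and 8 other genes and made up 20.8% of the distinct 100-base windows of its transcripts. By level, chief among them was the processed pseudogene H3f3c, listed at 568 TPM in pool 1 and 589 TPM in pool 2 over its 411 nt. H3f3c shared 168 windows. The most windows, 545, were shared with Gm17275, an overlapping gene on the other strand (5.79 TPM in pool 1 and 9.17 TPM in pool 2). H2afz shared such stretches with 4 genes, including the processed pseudogene Gm8203 at 502 TPM in pool 1 and 377 TPM in pool 2. Gm8203 shared 288 windows with H2afz, and Tmcc1 shared 570 (18.3 TPM in pool 1 and 18.1 TPM in pool 2). Adding the pseudogenes to their parents gave H3f3b 33.0% of H3.3 transcripts and H2afz 81.6% of H2A.Z transcripts, so each order was kept. H2afx shared 1.40% of its windows with 18 genes, mostly clustered H2A genes, and H3f3b 1.92% with 2 pseudogenes. Windows overlap along a transcript, so these percents are not shares of its bases. H1f0, H2afv, H2afy and Cenpa shared none at this length. H1fx shared 10.2% of its windows with the overlapping antisense gene Gm5577 (4.18 TPM in pool 1 and 3.59 TPM in pool 2). H2afy2 shared 6.55% with Aifm2 on the other strand (4.53 TPM in pool 1 and 3.41 TPM in pool 2). Without a stated strand setting, reads from the shared stretches cannot be told apart.

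Transcript tables showed which forms of each gene were counted. H1f0, H1fx, H2afx and H2afy2 had 1 annotated transcript each and the other 6 genes had several. Over all 10 genes, 18 transcripts reached an isoform percent of 10 in either pool. The isoform percent is the share of a gene's transcripts that the authors assigned to a form, and it moved by at most 5.97 points between pools.

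Among the H2afy transcripts that hold either of the alternative exons, nearly all of the level was in those with the macroH2A1.2 exon. H2afy-202, the only transcript with the macroH2A1.1 exon, had 3.35 TPM in pool 1 and 2.23 TPM in pool 2, from 191 and 122 reads. The transcripts with the macroH2A1.2 exon, H2afy-201 and the intron-retaining H2afy-206, had 326 and 283 TPM. The macroH2A1.1 form was thus 1.02% and 0.782% of those with either exon (0.899 ± 0.166%, SD, n = 2). H2afy-202 is 2037 nt in the deposited tables and 1933 nt in the annotation that gives its exons. The share rests on few reads for macroH2A1.1, whose deposited intervals were 2.21 to 4.64 TPM in pool 1 and 1.35 to 3.52 TPM in pool 2. H2afy-204, a processed transcript without a coding region, held an isoform percent of 24.5 and 22.5 for the gene, against 68.7 and 69.1 for H2afy-201.

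In Cenpa most of the level came from transcripts that the annotation classes as targets of nonsense-mediated decay, the pathway that removes mRNAs with an early stop codon. These made up 57.4% of the gene's TPM in pool 1 and 58.7% in pool 2 (58.1 ± 0.930%, SD, n = 2), against 39.5% and 37.0% for coding transcripts. By isoform percent Cenpa-202 was the leading form, at 41.4 and 40.2, and the full-length coding Cenpa-205 had 38.8 and 36.2. The deposited TPM intervals of these forms overlapped in both pools. In reads the order turned, with 44.3% and 41.8% of the gene's reads for Cenpa-205 and 39.7% and 38.9% for Cenpa-202. Cenpa-201 had an isoform percent of 10.6 in pool 1 and 14.6 in pool 2. Cenpa-202 holds an additional exon of 137 bases (chr5:30669692-30669828 on the plus strand), which is not a multiple of the codon length, and transcripts that overlap this exon made up 58.1% and 59.5% of the gene's TPM. Cenpa-202 is annotated with 42 coding codons against 134 in Cenpa-205. The annotated lengths of Cenpa-202 (1031 nt) and Cenpa-205 (1466 nt) differ from those in the deposited tables (1151 and 1354 nt), so their class, exons and codons are those of models other than the quantified ones. If the annotated classes hold for the quantified models, the coding level of Cenpa was 90.7 TPM in pool 1 and 73.3 TPM in pool 2. That is well below the level of the gene.

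The H3.3 and H2A.Z genes were mainly coding. H3f3a-201 held an isoform percent of 77.4 and 82.0 for H3f3a, H3f3a-204 held 12.7 and 6.74, and H3f3a-205, a form of 2841 nt, held 9.41 and 10.6. They are annotated with 135 codons in H3f3a-201, 119 in H3f3a-204 and 136 in H3f3a-205. H3f3a-204 had 344 TPM in pool 1 and 157 TPM in pool 2, with intervals of 305 to 373 and 117 to 185, and accounted for the largest change in isoform percent. H3f3b-201 held 84.1 and 84.0, and the non-coding H3f3b-204 held 14.6 in both pools. With coding transcripts only, the share of H3.3 from H3f3b was 33.9%. H2afz-201 held 85.4 and 81.6 and H2afz-207 held 14.0 and 17.7. H2afv was divided between H2afv-201 at 64.4 and 65.2, annotated with 90 codons, and H2afv-202 at 35.6 and 34.8, with 128 codons. The longer H2afv-202 nevertheless took 66.9% of the gene's reads in pool 1 and 66.1% in pool 2.

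**Figure D3:**
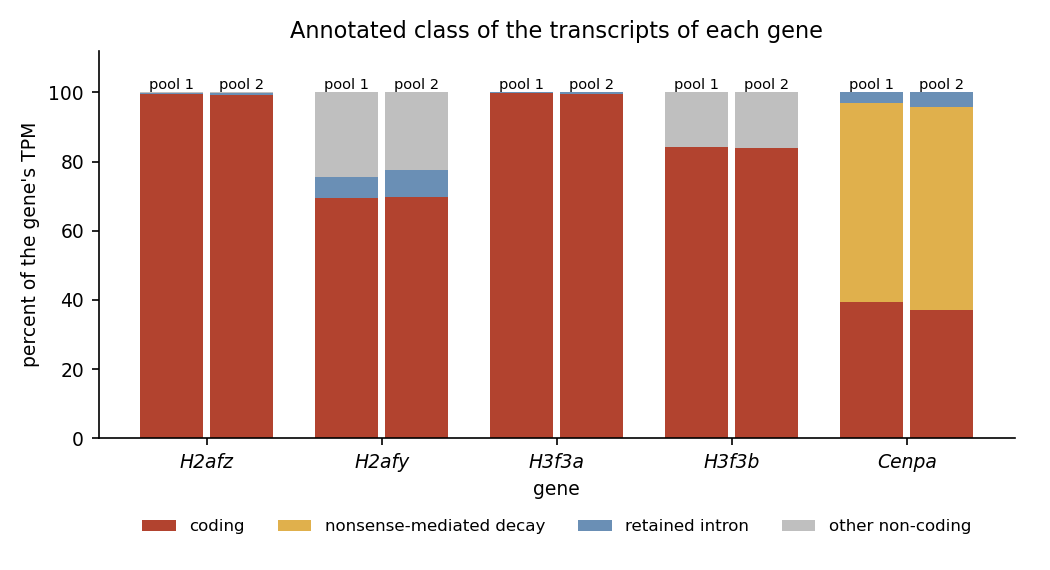
Percent of each gene's TPM in coding, nonsense-mediated decay, retained-intron and other non-coding transcripts, for pool 1 (left bar) and pool 2 (right bar); genes whose transcripts are all coding are left out. Cenpa is the gene with most of its level outside transcripts annotated as coding, 39.5% and 37.0% being coding. The annotated models of Cenpa-202 and Cenpa-205 differ in length from the quantified ones.

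To compare the pools, the log2 ratio of pool 1 over pool 2, computed on TPM + 1, was taken relative to that of the median expressed gene, which was 0.11. The ERCC controls made up 16.2% of all TPM in pool 1, against 22.2% in pool 2, which moves all deposited levels together. All 10 members were higher in pool 1 by deposited TPM, and 9 were relative to the median gene. Genes of this level leaned the same way: within the members' range of mean TPM the median relative log2 ratio was 0.044. H2afz (0.030), H2afv (0.035), H3f3b (0.036) and H2afx (-0.015) lay below that median. The relative log2 ratio was 1.00 for H1f0 and 0.84 for H1fx, and lay between -0.01 (H2afx) and 0.16 (H2afy2) for the other 8 genes. The linker variants were the 2 of 10 members over 1.5-fold apart; of all 14942 expressed genes 5.98% were over 1.5-fold apart in either direction. Among the 3497 genes with a mean TPM within the range of the members, 0.658% were that much higher in pool 1, and the SD of the relative ratio was 0.17. In the same range H1f0 held rank 5 and H1fx rank 8 of 3358 protein-coding genes towards pool 1. In bulk tissue, fewer cells of a type and less RNA per cell cannot be told apart.

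**Figure D4:**
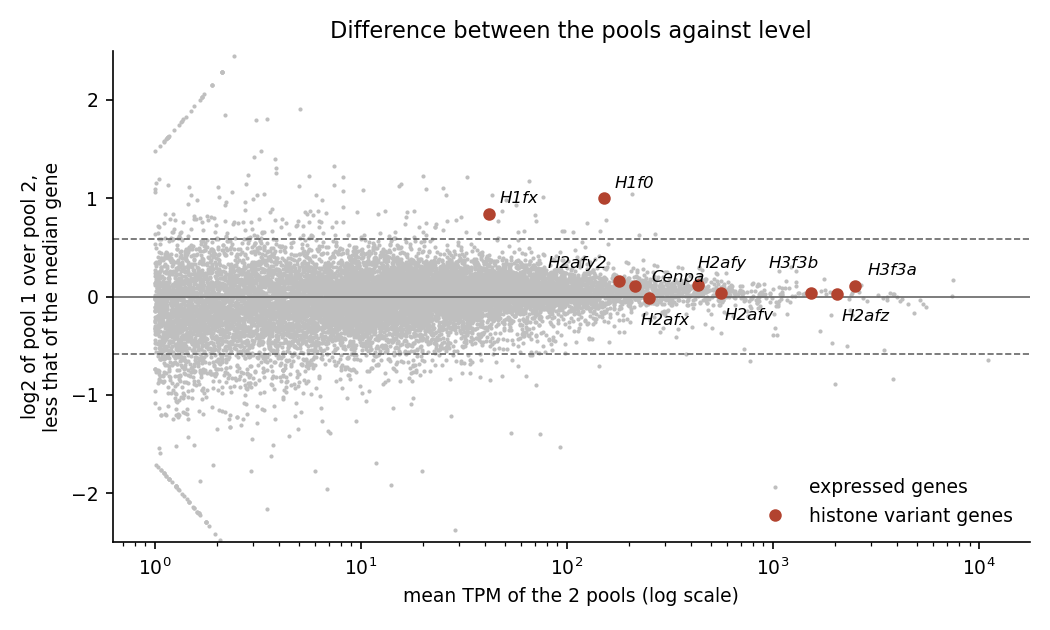
Relative log2 ratio of pool 1 over pool 2 against mean TPM (log scale) for 14942 expressed genes (grey) and the histone variants (red); dashed lines mark 1.5-fold and 41 genes lie beyond the axis. H1f0 and H1fx stand above the upper line, and the other 8 lie within the band of genes at their level.

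H1f0 and H1fx each have 1 exon, and the H1fx transcript is 71.3% G and C. The 59 protein-coding genes with 1 exon in the same range had a median relative log2 ratio of 0.0039, and the linker variants were the 2 over 1.5-fold higher in pool 1. For 17 genes with a GC content of at least 65% the median was 0.08, and 1 gene, H1fx itself, was over 1.5-fold apart. With the linker variants included, the SD was 0.25 for the genes with 1 exon and 0.24 for those rich in GC. It was 0.17 over the whole range. The part of exon number and GC content in the linker difference was not tested. Among the clustered linker genes, the 5 detected had a median of -0.15, with 0 over 1.5-fold apart, among them Hist1h1e (38.8 TPM in pool 1 and 43.0 TPM in pool 2), Hist1h1b (14.4 and 13.1 TPM) and Hist1h1c (10.5 and 10.8 TPM). Hist1h1t, a linker gene of the testis, was near 0 (0.05 and 0.11 TPM).

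Some marker lists were also higher in pool 1. The caudal Hox and skeletal muscle lists were drawn up knowing that such genes differed between these pools, so their direction is a description and no independent finding. All 6 caudal Hox genes, which mark levels behind the hindbrain, were over 1.5-fold higher in pool 1, with sums of 85.3 TPM in pool 1 and 33.95 TPM in pool 2. Of 4 skeletal muscle markers 3 were over 1.5-fold higher in pool 1 (sums of 54.4 and 23.85 TPM), and Myf5 had 1.22 and 0.73 TPM. Of 5 progenitor markers 1 was over 1.5-fold apart, Hes5, with 202.1 TPM in pool 1 and 109 TPM in pool 2. Sox2 had 25.2 and 15.4 TPM, just within 1.5-fold relative to the median gene (log2 ratio 0.57). The rest of that list did not lean this way, with Fabp7 at 0.03, Vim at -0.06 and Nes at -0.25. The median of the progenitor list was 0.03. Of the 9 hindbrain markers 8 were detected in both pools, with sums of 199 and 194 TPM, and 0 were over 1.5-fold apart. Proliferation markers gave a median of 0.10 with 0 of 5 over 1.5-fold apart, and neuron markers -0.04 with 0 of 5. Erythroid (median -0.01), endothelial (-0.05), macrophage (-0.02) and mesenchyme (-0.03) markers were all detected, with 0 over 1.5-fold apart. Of 5 forebrain markers 1 was detected in both pools, Lhx2 (18.4 TPM in pool 1 and 15.1 TPM in pool 2). The part of these differences in the levels of H1f0 and H1fx was not tested.

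The genes listed for chaperones, H2A.Z exchange, centromeres, damage signalling and macroH2A splicing or binding were detected in both pools wherever matched. All 9 H3.3 chaperone genes reached 1 TPM in both pools, with a median relative log2 ratio of -0.06 and 0 over 1.5-fold apart. Dek (227 TPM in pool 1 and 219 TPM in pool 2), Atrx (157 and 168 TPM) and Asf1a (60.1 and 55.8 TPM) were highest, and Hira, of the complex that loads H3.3 at genes, was lowest (10.4 and 10.1 TPM). All 18 H2A.Z exchange genes were detected, with a median of 0.02 and 0 over 1.5-fold apart. Actl6a (182 and 166 TPM), Vps72, which binds H2A.Z directly (175 and 163 TPM), and Ruvbl1 (123 and 103 TPM) led, and Ino80 was lowest (2.80 and 3.81 TPM).

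For CENP-A, all 18 deposition and inner centromere genes were detected, with a median of -0.02 and 0 over 1.5-fold apart. The CENP-A chaperone Hjurp was highest (94.1 TPM in pool 1 and 92.9 TPM in pool 2), followed by Mis18a (59.4 and 57.1 TPM), and Cenpb, which binds a centromeric repeat motif, was lowest (6.62 and 6.20 TPM). Of 15 genes of H2AX damage signalling, all detected, 1 was over 1.5-fold apart: Eya3, a phosphatase of H2AX, had 16.04 TPM in pool 1 and 23.1 TPM in pool 2. Against 5.98% of all expressed genes this count is near the background. Trp53bp1 (97.4 and 108 TPM), Rnf8 (66.1 and 53.6 TPM) and Baz1b, a kinase of H2AX (40.4 and 51.4 TPM), were highest in that list and Prkdc lowest (8.93 and 8.48 TPM).

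Of 8 genes known to act on macroH2A splicing or binding, 7 matched by symbol and were detected, with a median of -0.11 and 0 over 1.5-fold apart. The helicase Ddx5 (408 TPM in pool 1 and 409 TPM in pool 2), the ADP-ribose polymerase Parp1 (133 and 97.1 TPM) and Ddx17 (45.5 and 53.6 TPM) were highest, and Mbnl2 was lowest (20.2 and 20.45 TPM). The replication-coupled histone chaperones, all 12 detected, had a median of 0.07 and 0 over 1.5-fold apart. They were led by Set (523 and 463 TPM), Rbbp4 (377 and 348 TPM) and Nap1l1 (243 and 239 TPM), and Chaf1a was lowest (20.6 and 15.9 TPM). Over these partner lists Eya3 was the 1 gene over 1.5-fold apart. Of the 3497 genes at the level of the variants 23 were that much higher and 15 that much lower in pool 1. Eya3 (mean 19.6 TPM) and several other partner genes lie below that range, which starts at H1fx (42.1 TPM). Their background is the 5.98% of all expressed genes that were over 1.5-fold apart.

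**Figure D5:**
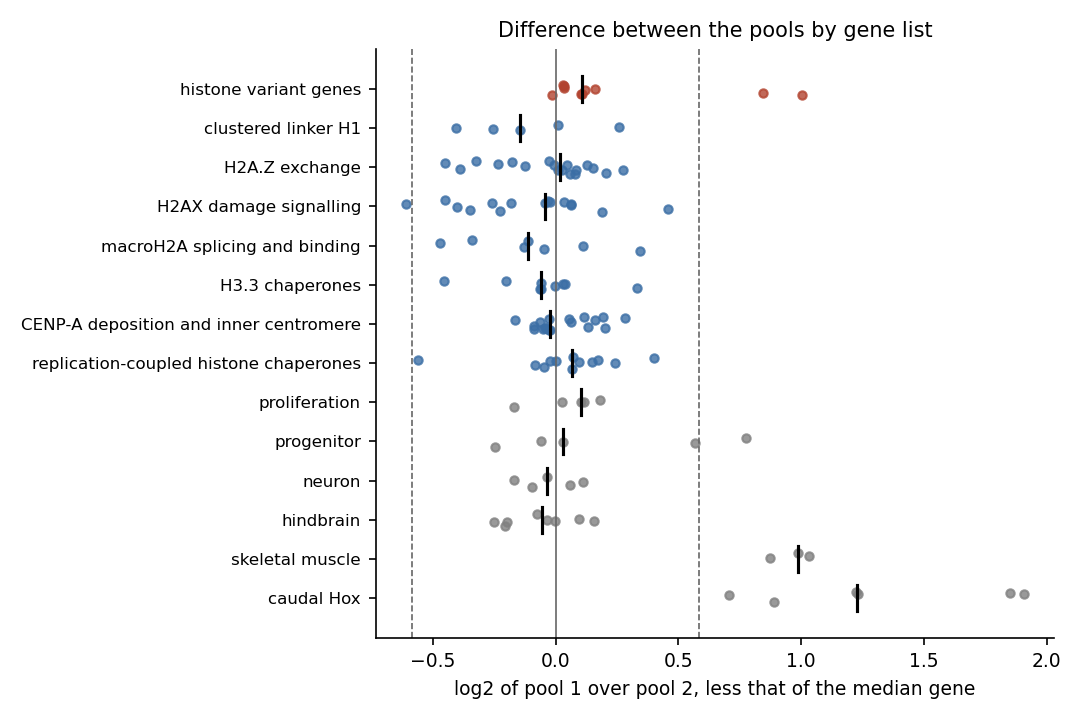
Relative log2 ratio of pool 1 over pool 2 for each gene with a mean TPM of at least 1 in the variant, partner and marker lists; black ticks are medians and dashed lines mark 1.5-fold. H1f0 and H1fx lie beyond the upper line, as do the caudal Hox genes (median 1.23) and the skeletal muscle markers shown (median 0.99), while the clustered linker genes (median -0.15) lie within the lines.

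Promoters of 9 of the 10 genes, all but H2afx, were found in RefSeq (GRCm38.p6) as 300 bases around the RefSeq start. For H1f0 this window ends at chr15:79028261, upstream of the gene start given above (79028450). The letters CCAAT stood on either strand in 6 of 9, against 37.4% of 32851 promoters, and the letters GGGCGG in 7 of 9, against 35.7%. The members' windows were 50.7% (Cenpa) to 77.7% (H1fx) G and C, all but Cenpa above the median promoter (52.7%). The 35.7% is not matched for this content, so 7 of 9 cannot be read as an excess. H1f0 and H1fx each held GGGCGG and no CCAAT. The letters TATAAA stood in 1 of 9, H3f3b (13.6% of all promoters), and AAACACA, the H1 box of clustered linker genes, in 1 of 9, H3f3a (7.18%). These matches describe the letters in these windows only.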

How the data were processed

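RNA longer than 200 nt from 2 pools of hindbrains was sequenced as total RNA. The authors deposited, per the file headers, a gene and a transcript table for each pool with an expected count (estimated, so often fractional), TPM, FPKM, a percent for each isoform of its gene, and interval bounds around a TPM signal estimated as a posterior mean. For the interval level, aligner, counting tool, strand setting and priming, nothing was given in the sources used here. The assembly was mm10 per the labels, and GENCODE M4 was the annotation per a deposited readme. A Smart-Seq document is linked in the labels.

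Symbols, biotypes, exons and transcript sequences came from GENCODE vM21 (GRCm38), which matched 42462 of 43346 Ensembl identifiers and 39 of 39 member transcripts, 35 with the deposited length; H1f0-201 (2287 nt in the tables and 2055 nt in vM21), H2afy-202, Cenpa-202 and Cenpa-205 differ. Samples were grouped by the labels. The difference between pools was the log2 of TPM + 1 in pool 1 minus that in pool 2, less its median over genes averaging 1 TPM or more, and a gene over 1.5-fold apart was counted as such. Of the steps, the comparison between pools was tested, on simulated counts with known changes and counting noise only. Exact matches of 50 and 100 bases were counted between transcripts; at 50 bases H3f3a matched 160 genes, and 100 bases were used. Clustered genes are those with Hist symbols.

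The 10 members, the 8 partner lists and the 11 marker lists were chosen with earlier results of these data known. Named genes were the members, their transcripts with an isoform percent of at least 10, and, in each partner list, the 3 highest, the lowest and any over 1.5-fold apart and averaging 5 TPM or more. A gene that this rule selects is not reported here. Markers named individually (Hes5, Sox2, Fabp7, Vim, Nes, Myf5, Lhx2) were named after their values were seen. Alternatives were FPKM, other TPM scalings, filters and pseudocounts, expected counts rounded and scaled with edgeR 4.0.16 (TMM) or DESeq2 1.42.0 (size factors) in R 4.3.3, coding transcripts only and each pool alone. Alignments were made with Biopython 1.88, tables with pandas 2.3.3 and NumPy 2.4.6 under Python 3.11.15, and figures with Matplotlib 3.10.9.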

Additional observations from a re-analysis of the deposited data

How the results depend on the processing

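H1f0 and H1fx were the members over 1.5-fold apart in the main comparison, and the count of 2 held under all 10 alternatives. The relative log2 ratio was 0.98 to 1.11 for H1f0 and 0.82 to 0.95 for H1fx. These alternatives reuse the same 2 libraries. Scaling of a whole pool is largely removed with the median, and each of these genes has 1 annotated transcript. Most alternatives could therefore hardly move these ratios, and they do not show whether the difference would recur in other pools. The members' median ratio ranged from 0.06 with scaled expected counts to 0.22 with no filter on low values. No paired analysis was possible because the series holds 1 group, and a ratio between pools cannot be computed with a pool left out. The 893 expressed genes over 1.5-fold apart became 420 with protein-coding transcripts only, 411 with protein-coding genes only, 294 at a mean TPM of at least 5, 1456 at a pseudocount of 0.1, and 1392 and 1395 with TMM and DESeq2 scaling, so the background share of 5.98% ranged from 2.73% to 9.74%.

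Levels followed the unit: the median member had 341 TPM and their sum was 7914 TPM, against 227 and 5267 in FPKM, 421 and 9782 without spike-ins, and 486 and 11279 over protein-coding nuclear genes. With protein-coding transcripts only, the median member was 275, H3f3b gave 33.9% of H3.3 (37.8% as reported), H2afz 78.5% of H2A.Z (78.6%), H2afy 62.8% of macroH2A (70.8%) and the members 60.8% of all histone transcripts (62.4%). In shares of expected counts H3f3b gave 52.4%, H2afz 80.7%, H2afy 65.05% and H1f0 87.3% of linker variants (77.9%); the share of H3.3 crossed an even split, since counts are not adjusted for length. With pseudogenes added H3f3b gave 33.0% and H2afz 81.6%, and with other unclustered histone genes in the total the members were 59.5%. With 2 pools, leaving out either only gives the other pool's value. Depth limits the macroH2A1.1 share, which rests on 191 and 122 reads.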

Other observations

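Of 9 other unclustered histone genes, 2 had a TPM above 1 in both pools. H3f3c, a processed pseudogene that shares sequence with H3f3a, had 568 TPM in pool 1 and 589 TPM in pool 2. Hils1, H1foo, H1fnt, H2bfm, H2afb1 and H2afb2, several of them known from germ cells, were listed at 0 in both pools, and H2afb3 had 0 TPM in pool 1 and 0.14 TPM in pool 2. H2afj, a replication-independent H2A gene, had 36.9 TPM in pool 1 and 34.9 TPM in pool 2.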
